A study of Mus musculus with 123 samples.

Results

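The proteasome subunit genes were taken as every protein-coding gene whose symbol begins with Psm, then a letter from a to g, then a digit. This name rule found 50 of the 29022 genes in the table of unique molecular identifiers (UMIs), or 50 of its 17983 protein-coding genes, and used no measured value. The study measured single mouse embryos with and without Oct4, the transcription factor made from Pou5f1, or Sox2, while the inner cell mass (ICM) forms. The series held 16 groups of embryos, with 68 embryos in the Oct4 line and 55 in the Sox2 line. Mothers of Ctrl and KO embryos carried Zp3-Cre, which acts in the growing oocyte, and 2 floxed copies of Pou5f1 or of Sox2. Both genotypes therefore lacked the maternal gene. Ctrl embryos had 1 intact paternal allele, and KO embryos inherited a paternal null allele marked by mKO2 in the Oct4 line or EGFP in the Sox2 line and were picked by that fluorescence. MWT embryos had mothers in which the gene was intact. Whole embryos were used for the morula stage at E2.75. For the ICMs, early at E3.75 and late at E4.5, embryos had been taken at E2.5, grown in KSOM medium with 1 µM PD0325901, an inhibitor of the kinase MEK, and stripped of trophectoderm by immunosurgery. Stage, inhibitor and isolation therefore cannot be told apart. There were 8 embryos in each Ctrl and each KO group, and the MWT groups were Oct4 morulae (7), early ICMs (5) and late ICMs (8) and Sox2 early ICMs (7). For Oct4 MWT ICMs the stage was read from the titles, with which the source names disagree, so their day is not settled, and the labels of the Oct4 MWT early ICMs name no inhibitor. All females had been superovulated, and the labels give B6C3F1 for every embryo. Which embryos were littermates is not given, so the p-values measure the spread between these embryos.

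The 26S proteasome is the enzyme complex that degrades proteins tagged with ubiquitin. Its barrel, the 20S core, has outer rings of alpha subunits and inner rings of beta subunits, of which beta1, beta2 and beta5 cut the substrate. The 19S particle caps the barrel, where its lid and base bind and deubiquitinate the substrate and a ring of ATPases unfolds it. Other activators, PA28 and PA200, can replace the 19S particle, and chaperones that do not stay in the complex guide its assembly. Fertilised eggs rely on proteasomes to clear maternal proteins.

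Of the 50 genes, 14 encode the standard 20S core, in the form of 7 alpha subunits, 3 proteolytic beta subunits and 4 other beta subunits. The 19S particle is represented by 17 genes, of which 6 encode ATPases, 3 other base subunits and 8 lid subunits. The 3 immunoproteasome subunits replace the proteolytic beta subunits in immune cells, and Psma8 and Psmb11 encode the testis and thymus forms. There are 5 activator genes, 4 chaperones of the core, 3 chaperones of the 19S base and the PI31 gene Psmf1. The last match, Psmc3ip, encodes a meiotic recombination factor that takes its name from binding Psmc3 and is no subunit.

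Libraries held 525755 to 1344035 UMIs, with a median of 897407. Levels are given as CPM, UMIs scaled to a common library total. With 1 tag counted per transcript they do not depend on transcript length. Reads shared with overlapping genes or pseudogenes can still differ between genes, so the order of levels between genes is approximate. In Oct4 Ctrl embryos Pou5f1 had medians of 23.1, 84.6 and 43.8 CPM at the 3 stages, and no Oct4-KO embryo exceeded 4.73 CPM. Sox2 had medians of 12.4, 94 and 169 CPM in Sox2 Ctrl embryos and of 1.81, 24.3 and 13.7 CPM in Sox2-KO embryos. Each of the 10 naive pluripotency markers was detected in every group, morulae included. Each of the 10 trophectoderm markers was detected in every group of ICMs. Of 10 primitive endoderm markers Foxa2 was at 0 in every early ICM group and in Oct4 MWT late ICMs. Sox7 was also at 0 in Oct4-KO early ICMs, and the other primitive endoderm markers were detected in every group of ICMs.

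Proteasome transcripts were abundant at every stage. The 50 genes together gave 0.646% to 1.54% of the UMIs of an embryo. Psmb1, a structural beta subunit, had the highest mean over all embryos at 671 CPM, followed by Psmb6 (624 CPM, beta1), Psmb4 (594 CPM), Psma2 (536 CPM) and Psmb2 (516 CPM). The order was not the same in every group: in Sox2 Ctrl morulae Psma2 had a mean of 776 CPM and Psmb1 of 532 CPM. All 31 genes of the standard core and the 19S particle were detected in every embryo. The activators were scarcer, with means of 121 CPM for Psme3, 73.6 CPM for Psme4, 55.6 CPM for Psme1 and 40.6 CPM for Psme2. The immunoproteasome gene Psmb8 had 1 UMI in all, in a Sox2 Ctrl morula, and failed the filter on detection (a UMI in at least 0.5 of the embryos of a stage). The other 49 genes passed it and were tested. Among these, Psma8 had 91 UMIs in all embryos together, Psmb11 120 and Psme2b 126, too few to follow in single embryos.

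**Figure D1:**
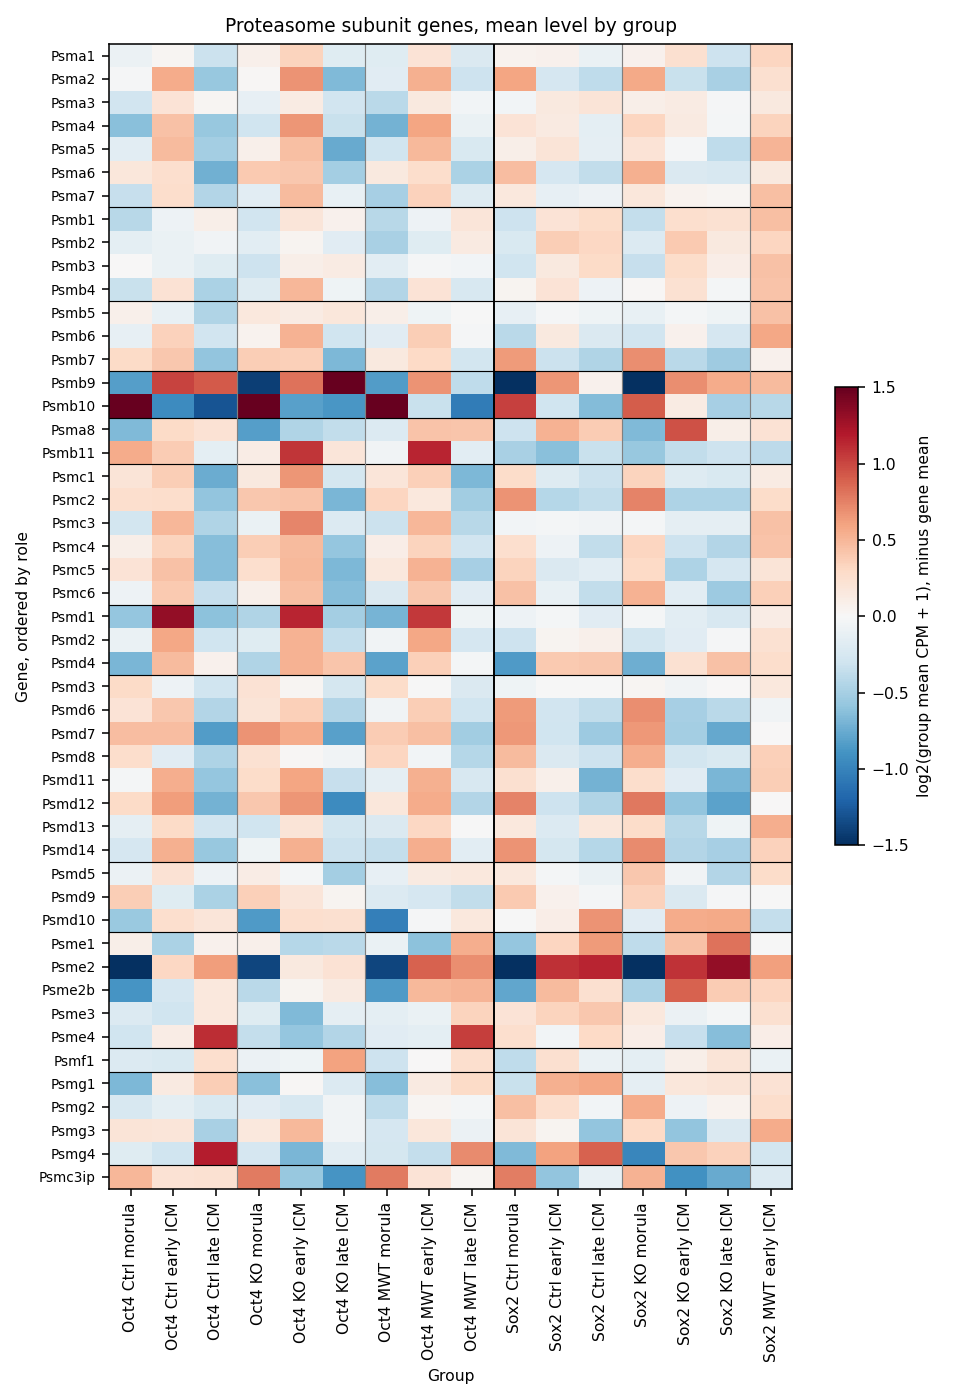
Mean level of 49 proteasome genes in the 16 groups, as log2(mean CPM + 1) minus the mean of the gene over groups, with colours clipped at 1.5 in either direction and Psmb8 left out. Psmd1 stands out in the early ICMs of the Oct4 line, Psme4 in Oct4 Ctrl and MWT late ICMs, and Psmb10 in morulae. Psmg4 is highest in Oct4 Ctrl late ICMs.

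Sequence before the transcription start was read from the RefSeq promoter table (GRCm38.p6), which matched 42 of the 50 genes. Psmb1, Psmb2, Psmb7, Psma8, Psmc3, Psmd3, Psmd7 and Psmg2 had none. Promoters of 4 members on which the results below turn are shown, as 120 bases, 5′ to 3′ on the strand of the gene, that end just before the start of the gene in the mm10 annotation of the files. For Psmg4 and Psmd14 this is also the RefSeq start, whereas for Psmb5 and Psme4 the RefSeq start lies 27 and 49 bases further on. Among changed members Psme4 and Psmg4 had the lowest KO fold changes and Psmb5 the highest, and Psmd14 moved in opposite directions in the lines. Capitals mark TGACNNNGC, the antioxidant response element to which the transcription factor Nfe2l1, an activator of proteasome genes, binds.
Psmb5, chr14:54618023-54618142, minus strand: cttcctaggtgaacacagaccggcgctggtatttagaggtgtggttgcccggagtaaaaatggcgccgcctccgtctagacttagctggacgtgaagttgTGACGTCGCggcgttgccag
Psme4, chr11:30771606-30771725, plus strand: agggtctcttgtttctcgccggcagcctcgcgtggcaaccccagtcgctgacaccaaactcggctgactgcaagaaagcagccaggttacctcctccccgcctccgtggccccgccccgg
Psmg4, chr13:34162844-34162963, plus strand: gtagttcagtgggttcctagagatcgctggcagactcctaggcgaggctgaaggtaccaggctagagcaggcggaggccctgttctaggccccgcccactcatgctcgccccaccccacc
Psmd14, chr2:61711574-61711693, plus strand: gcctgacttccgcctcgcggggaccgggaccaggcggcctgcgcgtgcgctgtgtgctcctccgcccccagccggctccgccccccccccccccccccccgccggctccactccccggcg
The stretch of Psmb5 holds the element, and Psme4 has it on the other strand across its RefSeq start, past the end of the stretch. In the RefSeq window of 250 bases before to 50 after the RefSeq start, read on both strands, it occurred in 6 of 45 promoters of the members (13.3%) and in 12.4% of all 32851 promoters. The 6 belonged to Psmb5, Psmb6, Psmc6, Psmd12, Psmd9 and Psme4. With TCA at its free bases the element also holds the AP-1 letters TGACTCA. The CCAAT box, whose matches may share a base with those of the element, was in 15 of the 45 (33.3%) and in 37.4% of all. Either share lay near that of all promoters, and a match is a description of these letters and not of binding.

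To see whether proteasome genes depended on Oct4, KO and Ctrl embryos of the Oct4 line were compared at each stage by edgeR's quasi-likelihood test over all 14053 genes tested. Changed means a Benjamini-Hochberg adjusted p under 0.05 over those genes, and log2 fold changes are given with their standard error. In Oct4-KO late ICMs 15 of the 49 genes rose and 4 fell, beside 16% and 15.7% of all genes. Most changes were small: 3 genes passed the study's rule, which also asks for a 2-fold change, and each of them fell, whereas 18.1% of all genes passed that rule. The members' median log2 fold change was 0.12, against -0.01 over all genes. Of the 14 core genes 7 rose and none fell, and of the 17 genes of the 19S particle 5 rose and none fell.

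Psme4 (ENSMUSG00000040850, mm10 chr11:30771726-30880361) encodes PA200, which opens the core without ubiquitin and is best known from spermatids. In Oct4 Ctrl late ICMs its level ran from 102 to 227 CPM, with a median of 134, and in KO late ICMs from 34.8 to 68 CPM, with a median of 49.9. The groups did not overlap (log2 fold change -1.44 ± 0.16, adjusted p = 3.93e-12, 8 of 8 KO embryos below the Ctrl median). In early ICMs Ctrl embryos had 49.8 to 97 CPM, with a median of 75, and KO embryos 33 to 72.3 CPM, with a median of 42.4. Psme4 fell here as well (log2 fold change -0.64 ± 0.16, adjusted p = 0.00219, 8 of 8 below), although the groups overlapped. Morulae had 36.9 to 71.7 (median 56.5) CPM in Ctrl and 36.3 to 74.2 (median 52.2) CPM in KO embryos, with a log2 fold change of -0.01 (adjusted p = 1). The KO effect was larger in late than in early ICMs, with a difference of -0.80 (adjusted p = 0.0252) on the log2 scale. Psme4 was the one member whose KO effect differed between these stages, beside 4.46% of all genes.

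Psmg4, which encodes the core assembly chaperone PAC4, also fell in late ICMs. Its level was 89.6 to 216 CPM, with a median of 124, in Ctrl and 30.3 to 73.3 CPM, with a median of 49.1, in KO embryos. These ranges did not overlap either (log2 fold change -1.25 ± 0.23, adjusted p = 4.8e-06, 8 of 8 below). In early ICMs, at 37.7 to 60.8 (median 46.7) CPM in Ctrl and 20.7 to 53.1 (median 35.3) CPM in KO embryos, the log2 fold change was -0.33 (adjusted p = 0.364). Psmg1, the gene of the chaperone PAC1, went from 76.1 to 164 CPM, with a median of 102, in Ctrl to 49.2 to 95.7 CPM, with a median of 74, in KO late ICMs, and it fell (log2 fold change -0.50 ± 0.15, adjusted p = 0.00475, 8 of 8 below) with overlapping ranges. Psmg3, the gene of PAC3, the partner of PAC4, was higher in KO late ICMs, with 37.5 to 66.8 (median 48.8) CPM in Ctrl and 44.9 to 102 (median 74.6) CPM in KO embryos (log2 fold change 0.55 ± 0.19, adjusted p = 0.0171, 6 of 8 above). Psmg2, which encodes PAC2, the partner of PAC1, had a log2 fold change of 0.27 (adjusted p = 0.123). Of the 4 core chaperones 2 were thus lower, 1 was higher and 1 did not pass the test, and the higher one, Psmg3, lost its call without the Ctrl late ICM numbered 2-9. Psmg3 shares its strand and its 3′ end with the predicted gene Gm26938, and its reads may have been split between them.

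Psmc3ip, the recombination factor, fell in both ICM stages. Early ICMs had 24.9 to 55 (median 41.5) CPM in Ctrl and 8.89 to 33 (median 25.2) CPM in KO embryos (log2 fold change -0.74 ± 0.23, adjusted p = 0.0128, 8 of 8 below), and late ICMs had 13.3 to 56.1 (median 47) CPM and 10.7 to 24.4 (median 19.6) CPM (log2 fold change -1.09 ± 0.24, adjusted p = 0.000196, 8 of 8 below). The ranges overlapped at both stages. Its 3′ end lies over Mlx on the other strand.

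Psmb5 encodes beta5, the chymotrypsin-like subunit that proteasome inhibitor drugs bind, and it had the largest rise. Ctrl late ICMs had 202 to 275 CPM, with a median of 245, and KO late ICMs 286 to 448 CPM, with a median of 385. Every KO embryo exceeded every Ctrl embryo (log2 fold change 0.72 ± 0.11, adjusted p = 6.49e-08). In early ICMs it also rose, from 254 to 342 (median 302) CPM to 288 to 459.8 (median 349.6) CPM (log2 fold change 0.31 ± 0.11, adjusted p = 0.0263, 7 of 8 above), with overlap. Psmb6 and Psmb7, the beta1 and beta2 genes, did not pass the test in late ICMs. Psmb6 had 367 to 589 (median 522) CPM in Ctrl and 351 to 651 (median 476) CPM in KO embryos, and Psmb7 had 223 to 336 (median 257) CPM and 154 to 389.9 (median 226) CPM. Their log2 fold changes were 0.09 (adjusted p = 0.601) and 0.02 (adjusted p = 0.929).

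The other rises in Oct4-KO late ICMs were spread over the complex. Psmd9, a chaperone of the 19S base, had 13.3 to 26.7 (median 18) CPM in Ctrl and 10.9 to 32.6 (median 30.1) CPM in KO embryos (log2 fold change 0.65 ± 0.19, adjusted p = 0.0062, 7 of 8 above). Psmc1, an ATPase, had 69.6 to 135 (median 95.1) CPM and 82.7 to 268 (median 118) CPM (log2 fold change 0.59 ± 0.16, adjusted p = 0.00173, 6 of 8 above). Psmf1, whose product PI31 binds the core, had 37.5 to 58.8 (median 45.1) CPM and 40.5 to 74.1 (median 61.8) CPM (log2 fold change 0.46 ± 0.17, adjusted p = 0.034, 7 of 8 above). The ranges of all 3 overlapped. The remaining 10 were Psma1, Psma4, Psma6, Psma7, Psmb3 and Psmb4 of the core and Psmc3, Psmd4, Psmd8 and Psmd14 of the 19S particle, with log2 fold changes from 0.25 to 0.51.

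How many of these small rises passed the test depended on the scaling. When embryos were scaled by their totals instead of by TMM (trimmed mean of M values), the median of all genes moved to -0.10 and the split of the 49 genes went from 15 higher and 4 lower to 7 and 7, although each of the first 19 kept its direction. In a fit of the Oct4 Ctrl and KO late ICMs alone 7 genes were called, 4 higher and 3 lower, and with the first digit of the late ICM number as a block 13 were. Psme4, Psmg4, Psmb5, Psmc3ip and Psmg3 remained called in the fit of these 2 groups alone. KO late ICMs had 34.8 to 42 CPM of Psme4 where the first digit was 1 and 57.8 to 68 CPM where it was 2. In Ctrl late ICMs the Psme4 ranges of the 2 digits overlapped. Psmb3 and Psmf1, like Psmg3, lost the call without the Ctrl late ICM numbered 2-9. Summed over 10 genes each, trophectoderm markers had 1796 to 3109 CPM in KO and 508 to 1287 CPM in Ctrl late ICMs, primitive endoderm markers 966 to 2041 and 288 to 1492 CPM, and naive pluripotency markers 3177 to 4608 and 5637 to 9242 CPM. None of these 30 markers was at 0 in either group. The part of cell makeup in the proteasome changes was not tested, and in whole ICMs fewer cells of a type and less RNA per cell cannot be told apart.

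**Figure D2:**
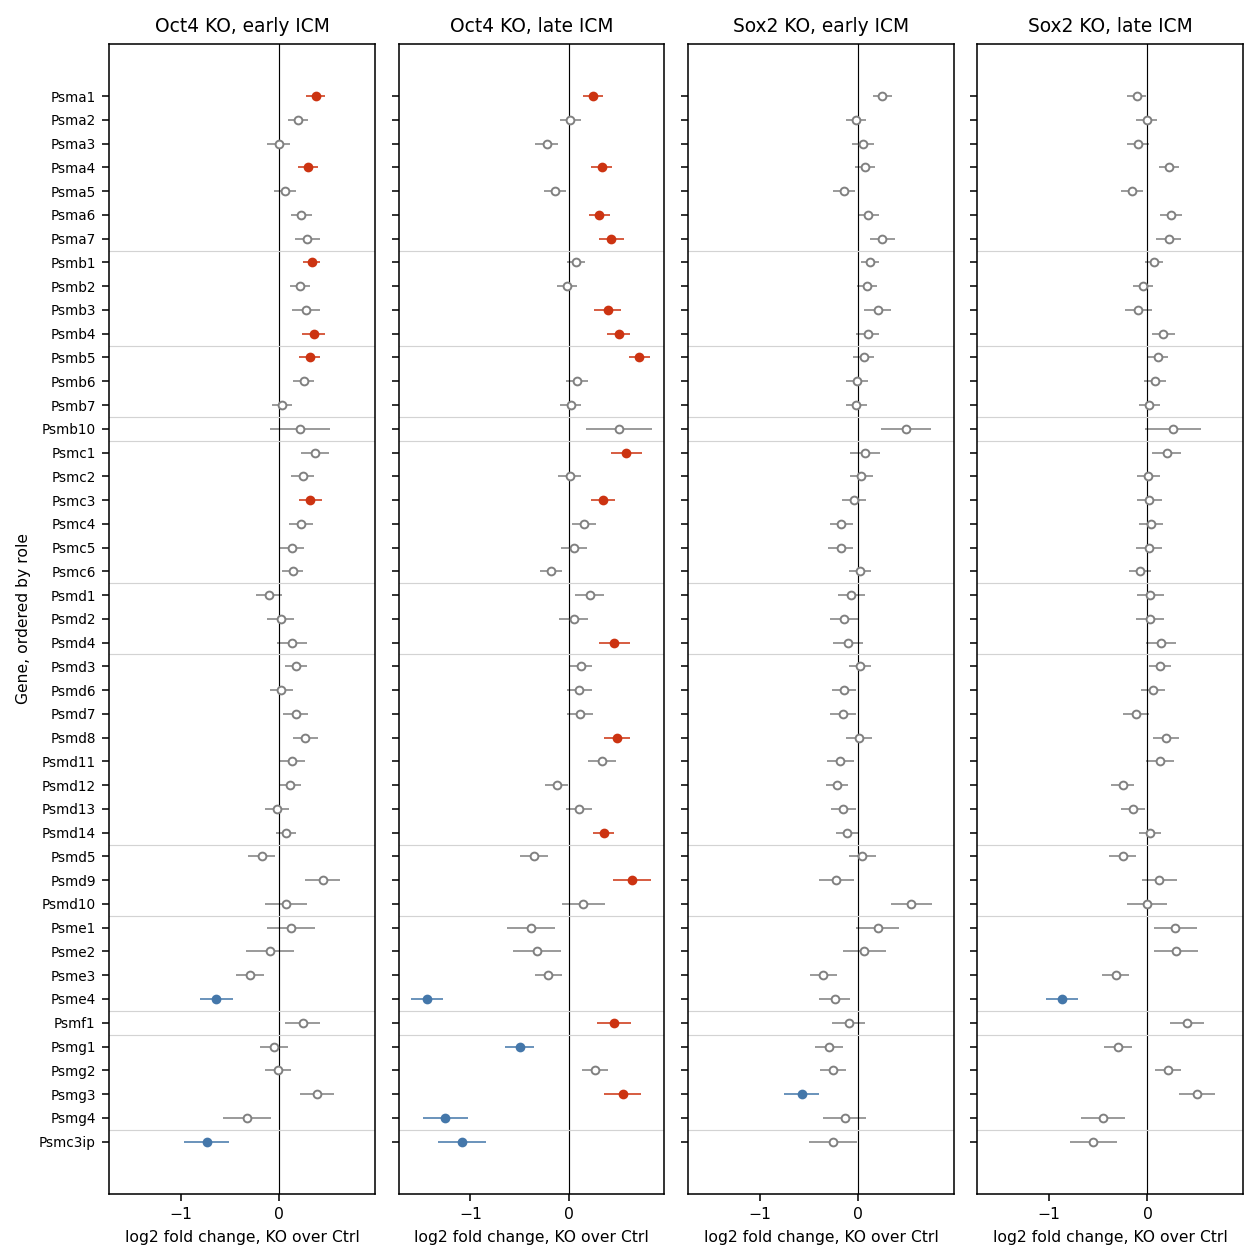
Log2 fold change of 45 proteasome genes, KO over Ctrl, in early and late ICMs of the Oct4 and Sox2 lines, with bars of 1 standard error and filled points where the adjusted p was under 0.05 (red higher, blue lower). Psmb8, Psmb9, Psmb11, Psma8 and Psme2b are left out, and Psme4 lies far to the left in late ICMs of both lines.

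In Oct4-KO early ICMs 6 members rose and 2, Psme4 and Psmc3ip, fell, beside 10.1% and 10.9% of all genes. No member passed the study's 2-fold rule there, which 10.9% of all genes did, while 18 of the 49 had an unadjusted p under 0.05. The median was 0.13, against 0.01 over all genes. Psma1, Psmb4, Psmb1, Psmb5 and Psma4 of the core rose by 0.37, 0.35, 0.33, 0.31 and 0.29 on the log2 scale, and the ATPase gene Psmc3 rose by 0.32 (adjusted p = 0.0484). Psma1 had 342 to 456 (median 399) CPM in Ctrl and 417 to 595 (median 488) CPM in KO embryos (adjusted p = 0.00219, 8 of 8 above). Psmb4 had 591 to 818 (median 669.9) CPM and 714 to 927 (median 839.5) CPM (adjusted p = 0.0199, 8 of 8 above). Psmb1 had 553 to 684 (median 644) CPM and 627 to 856 (median 749) CPM (adjusted p = 0.00431, 7 of 8 above). All 3 overlapped between the groups. Under scaling by totals 4 members were called, 2 in each direction. Naive pluripotency markers summed to 2955 to 4156 CPM in KO and 4312 to 8573 CPM in Ctrl early ICMs, without overlap, primitive endoderm markers to 890 to 1673 and 604 to 938 CPM, and trophectoderm markers to 1019 to 2082 and 626 to 1802 CPM. Their part in these changes was not tested. The 3′ end of Psmc3 lies over Slc39a13 on the other strand, with which it may share reads.

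In Oct4-KO morulae 1 member rose and none fell, where 0.562% of all genes rose and 0.904% fell. No member passed the 2-fold rule, which 0.804% of genes did. The gene was Psma4, an alpha subunit, with 233 to 311 (median 263) CPM in Ctrl and 277 to 406 (median 340.2) CPM in KO morulae (log2 fold change 0.38 ± 0.10, adjusted p = 0.0357, 8 of 8 above, with overlap). It rose in early ICMs too, from 479.7 to 622 (median 575) CPM to 546 to 755 (median 663) CPM (log2 fold change 0.29 ± 0.10, adjusted p = 0.033), and in late ICMs, from 215 to 381 (median 276) CPM to 186 to 474 (median 329) CPM (log2 fold change 0.34 ± 0.11, adjusted p = 0.00957). The morula call was lost when totals replaced TMM or when no filter on detection was used.

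KO and Ctrl embryos of the Sox2 line were compared in the same way. In Sox2-KO morulae none of the 49 was called, none had an unadjusted p under 0.05, and DESeq2 and limma called none either. Over all genes 0% rose and 0.00712% fell in that comparison, and 0.00712% passed the 2-fold rule. In Sox2-KO early ICMs no member rose and 1 fell, beside 3.22% and 3.82% of all genes, and none passed the 2-fold rule, against 3.27% of genes. This was Psmg3, at 43.1 to 152 CPM, with a median of 62.6, in Ctrl and 28.2 to 71.2 CPM, with a median of 50.9, in KO early ICMs (log2 fold change -0.57 ± 0.18, adjusted p = 0.033, 6 of 8 below). The ranges overlapped, and the highest Ctrl embryo lay far above the median. The call was lost without the filter on detection, in the fit of the 2 groups alone and with limma. Trophectoderm markers summed to 507 to 2081 CPM in these KO and 381 to 816 CPM in these Ctrl early ICMs, and their part was not tested.

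Of the 49 members in Sox2-KO late ICMs none rose and 1 fell, beside 6.96% and 6.81% of all genes, and none passed the 2-fold rule, against 6.95% of genes. The gene was again Psme4. Its level was 46.1 to 122 CPM, with a median of 84, in Ctrl and 21.2 to 59.9 CPM, with a median of 46.7, in KO embryos (log2 fold change -0.87 ± 0.17, adjusted p = 4.3e-05, 8 of 8 below). The ranges overlapped, because 1 Ctrl embryo had 46.1 CPM. In early ICMs it had 50.9 to 87.4 (median 64.2) CPM in Ctrl and 32.1 to 77.4 (median 51.8) CPM in KO embryos, with a log2 fold change of -0.24 (adjusted p = 0.439). Under scaling by totals 5 members were called in late ICMs in place of 1. Naive pluripotency markers summed to 4431 to 5485 CPM in Sox2-KO and 5598 to 8606 CPM in Ctrl late ICMs, and trophectoderm markers to 597 to 2042 and 305 to 2934 CPM, with no marker at 0. Their part in the Psme4 result was not tested.

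**Figure D3:**
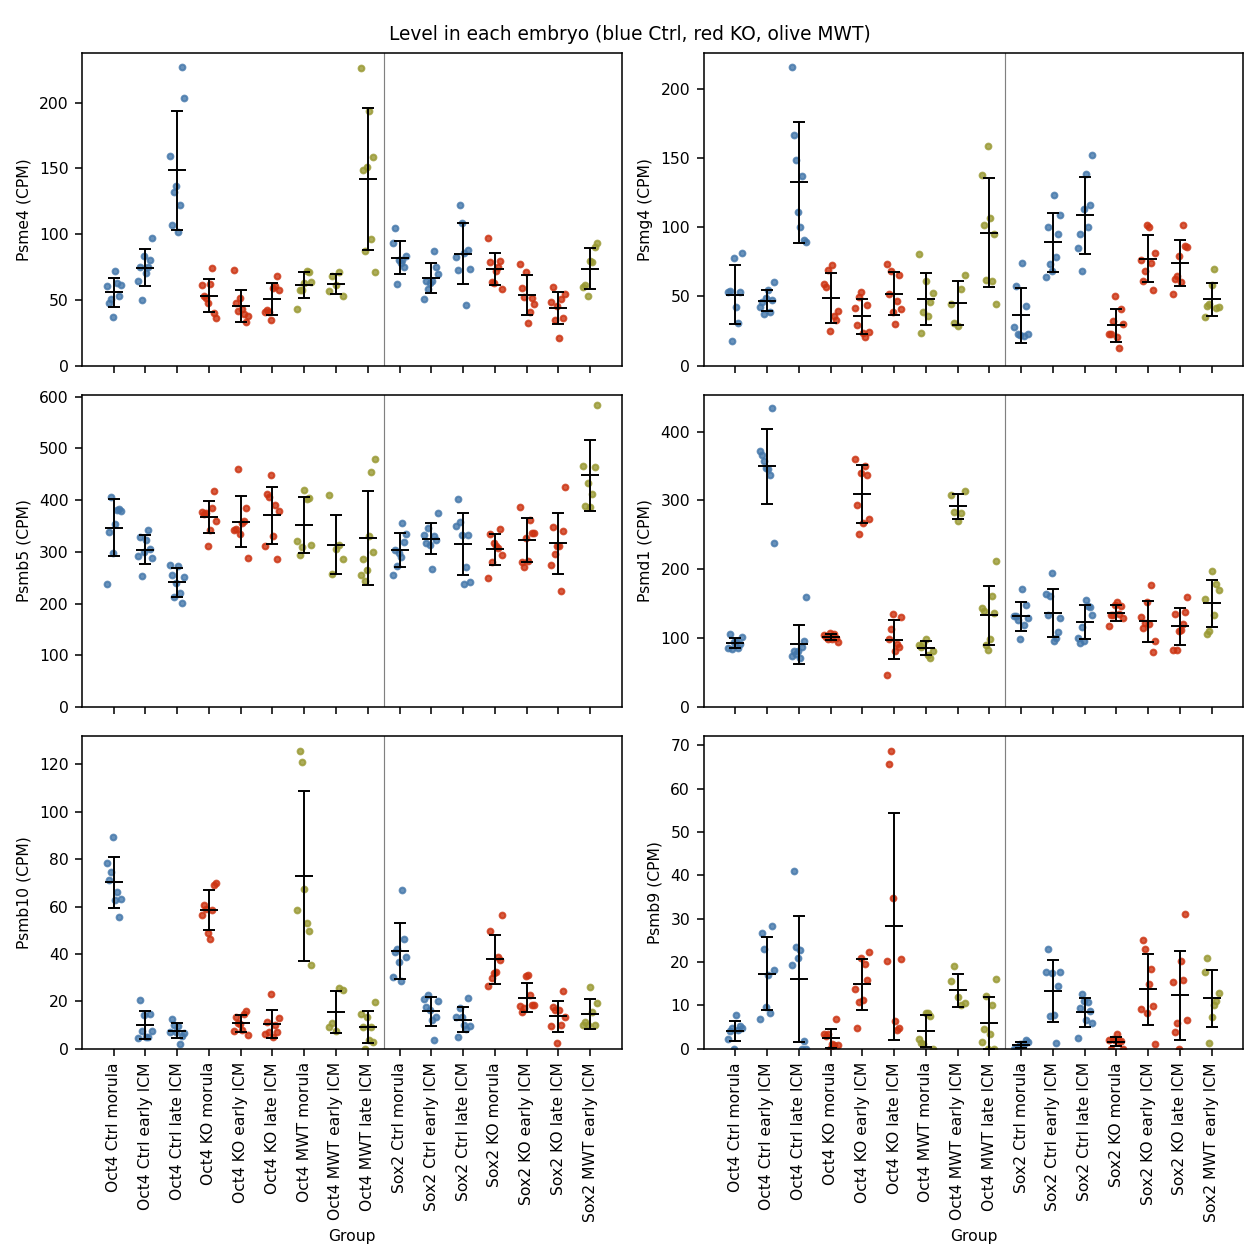
Level of Psme4, Psmg4, Psmb5, Psmd1, Psmb10 and Psmb9 in each embryo in CPM, by group, with the mean and 1 standard deviation (blue Ctrl, red KO, olive MWT). Psme4 in Oct4 Ctrl late ICMs runs from 102 to 227 CPM, above all 8 Oct4-KO late ICMs at 34.8 to 68 CPM.

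The KO effects of the lines were compared directly by interaction contrasts. In early ICMs the Oct4 effect exceeded the Sox2 effect for 1 of 49 members, Psmg3, by 0.96 ± 0.25 on the log2 scale (adjusted p = 0.00671), beside 8.12% of all genes in either direction. In late ICMs 1 member differed, beside 8.67% of all genes. That was Psmb5, for which the Oct4 effect exceeded the Sox2 effect by 0.61 ± 0.15 (adjusted p = 0.0043). In the Sox2 line Psmb5 had 237 to 403 (median 332) CPM in Ctrl and 224 to 426 (median 311) CPM in KO late ICMs, with a log2 fold change of 0.11 (adjusted p = 0.584). Psme4 and Psmg4 had differences of -0.57 (adjusted p = 0.109) and -0.80 (adjusted p = 0.0977), so a difference between lines was not shown for either. Between early and late ICMs of the Sox2 line no member's KO effect differed by edgeR, with 5 at an unadjusted p under 0.05, beside 0.0427% of all genes.

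The Ctrl embryos showed how proteasome transcripts moved with stage. In the Oct4 line the 17 genes of the 19S particle summed to 3937 to 4309 CPM, with a median of 4138, in morulae, 3829.9 to 5730.0 CPM, with a median of 5163, in early ICMs and 2577 to 3131 CPM, with a median of 2655, in late ICMs. The 14 core genes summed to 4859 to 6001 (median 5830.1), 6196 to 8164 (median 7401) and 4429 to 5612 (median 5050.2) CPM. The medians of both were highest in early ICMs and lowest in late ICMs, and no late Ctrl ICM reached the lowest early one for either sum. In the Sox2 line the 19S sum was 4371 to 5527 (median 4900.2) CPM in morulae, 2649 to 4480.2 (median 3279) CPM in early ICMs and 2909 to 3388 (median 3240.5) CPM in late ICMs, and the core sum 5940.1 to 6987 (median 6741), 5815 to 7261 (median 6746) and 5428 to 6487 (median 6162) CPM. Here the 19S sum was already low in early ICMs, while the core sums of the 3 stages overlapped.

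The ratio of 19S to 20S UMIs, which does not depend on scaling, was 0.686 to 0.81 (median 0.719) in Oct4 Ctrl morulae, 0.618 to 0.729 (median 0.697) in early ICMs and 0.51 to 0.582 (median 0.546) in late ICMs. The Sox2 Ctrl embryos had ratios of 0.687 to 0.791 (median 0.75), 0.447 to 0.641 (median 0.5) and 0.491 to 0.565 (median 0.533). Every late ICM was below every morula in both lines, and the lines differed at the early ICM, where they overlapped little. Oct4-KO embryos had medians of 0.717, 0.659 and 0.544, Sox2-KO embryos of 0.771, 0.479 and 0.527, and Oct4 MWT embryos of 0.744, 0.688 and 0.529. In each genotype of the Oct4 line the median was highest in morulae and lowest in late ICMs, and in Ctrl and KO embryos of the Sox2 line it was highest in morulae and lowest in early ICMs. These sums and ratios are descriptions over chosen genes and carry no test.

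**Figure D4:**
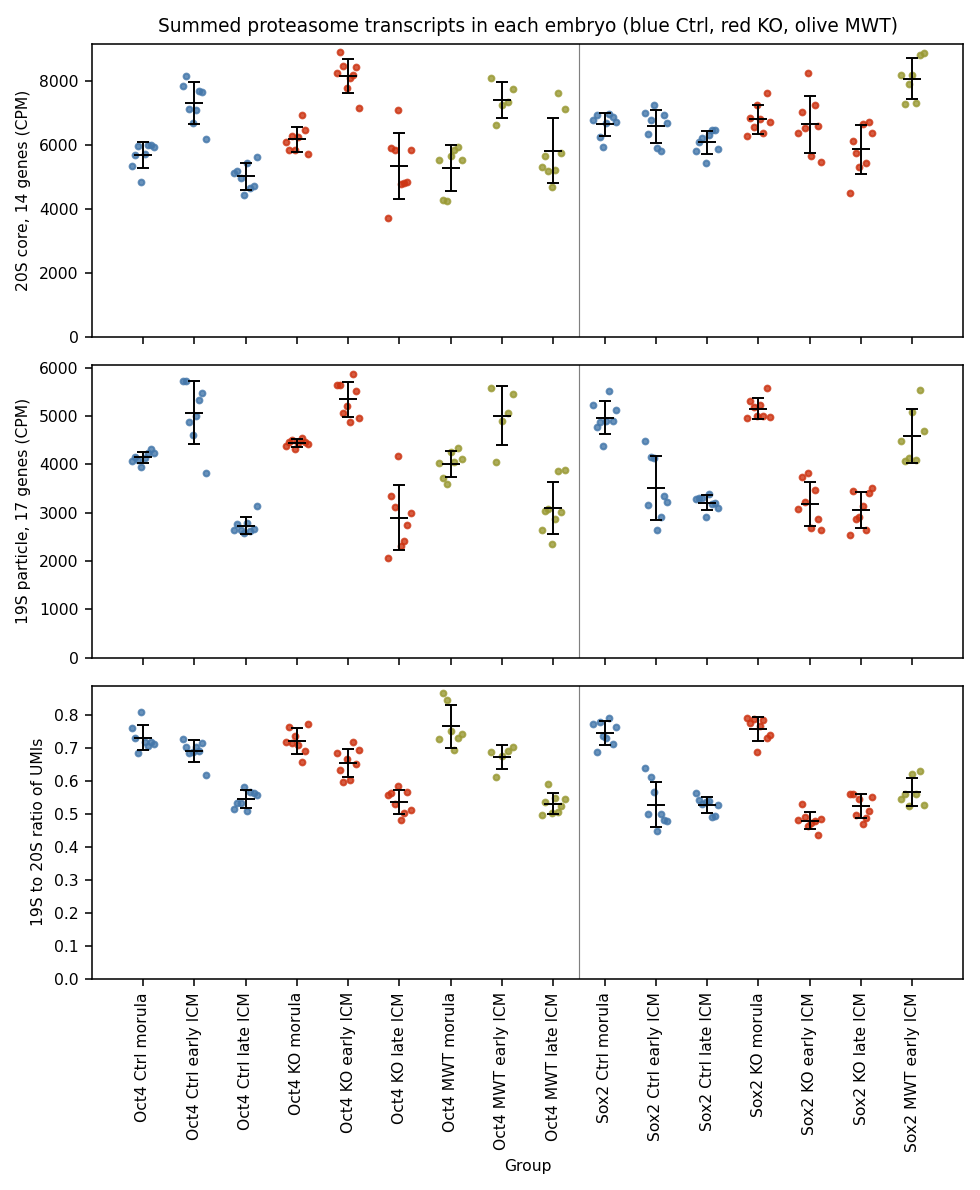
Summed level of the 14 standard 20S core genes and of the 17 genes of the 19S particle in each embryo in CPM, and the ratio of their UMIs, by group, with the mean and 1 standard deviation (blue Ctrl, red KO, olive MWT). The ratio runs from 0.656 to 0.868 in morulae and from 0.47 to 0.591 in late ICMs, and early ICMs of the Oct4 line, at 0.597 to 0.729, and of the Sox2 line, at 0.437 to 0.641, reach into the range between these stages.

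From morula to early ICM in Oct4 Ctrl embryos 21 of 49 members rose and 6 fell, beside 23.8% and 24.3% of all genes. Of these, 5 rose and 1 fell by at least 2-fold, a rule that 29% of all genes passed. The core had 8 rises and 1 fall and the 19S particle 8 and 2, with median log2 fold changes of 0.30 and 0.23, against 0.00 over all genes. From early to late ICM 6 members rose and 25 fell, beside 17.2% and 15.2%, with 2 rises and 8 falls of at least 2-fold, a rule that 15.6% of genes passed. All 6 ATPase genes, 6 of 8 lid genes and 2 of 3 other base genes fell, with a median of -0.88 over the 17, and 10 of 14 core genes fell and 1 rose, with a median of -0.60. The core gene that rose was Psmb1 (log2 fold change 0.23 ± 0.09, adjusted p = 0.0411), and it lost the call without the late ICM numbered 2-9. Naive pluripotency markers summed to 2234 to 2859 CPM in these morulae, 4312 to 8573 CPM in early and 5637 to 9242 CPM in late ICMs, and their part in the steps was not tested. The 2 steps share the early ICMs, so an embryo that is high there raises the first step and lowers the second. Scaling by totals moved the median of all genes in the first step from 0.00 to 0.10.

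Psmd1 had the largest of these changes among the 19S genes. It encodes Rpn2, a scaffold of the base, at mm10 chr1:86064387-86139151. In Oct4 Ctrl embryos it had 84.9 to 106 CPM, with a median of 93.4, in morulae, 238 to 434 CPM, with a median of 352, in early ICMs and 71 to 159 CPM, with a median of 81.4, in late ICMs. No early ICM overlapped either neighbouring stage, and Psmd1 rose (log2 fold change 1.80 ± 0.14, adjusted p = 6.08e-20) and then fell (log2 fold change -1.89 ± 0.14, adjusted p = 2.11e-19). Oct4-KO embryos had 94.1 to 108 (median 102), 251 to 359.5 (median 315) and 46.8 to 135 (median 95.3) CPM, again highest in early ICMs. In the 5 Oct4 MWT early ICMs the values were 271, 282, 283, 309 and 314 CPM. Sox2 Ctrl embryos had 98.9 to 171 (median 130.2), 96.1 to 195 (median 132) and 93 to 156 (median 125) CPM, and the log2 fold changes of the 2 steps were -0.01 (adjusted p = 0.953) and -0.18 (adjusted p = 0.484). The 3′ end of Psmd1 lies under the predicted gene Gm21972 on the same strand, which was not analysed here, and its count is uncertain for that reason.

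Of the 8 lid genes 6 fell from early to late ICM in Oct4 Ctrl embryos, and Psmd3 and Psmd8 had log2 fold changes of -0.16 (adjusted p = 0.286) and -0.22 (adjusted p = 0.211). Psmd14 encodes Rpn11, the deubiquitinase of the lid, and had 158 to 197 (median 173) CPM in Oct4 Ctrl morulae, 253 to 378 (median 294) CPM in early ICMs and 119.8 to 169 (median 135) CPM in late ICMs (log2 fold change 0.69 ± 0.11, adjusted p = 5.44e-08, then -1.05 ± 0.11, adjusted p = 2.12e-13). Psmd12 had 277 to 472 (median 405) CPM in early and 118 to 190.0 (median 152) CPM in late ICMs (log2 fold change -1.29 ± 0.12, adjusted p = 3.88e-16). Psmd7 had 298 to 519.8 (median 418) CPM and 134 to 235 (median 165) CPM (log2 fold change -1.24 ± 0.13, adjusted p = 4.47e-13). For each of these 3 genes the early and late ICMs did not overlap. Psmd11, the ATPase genes Psmc1 and Psmc5 and the alpha subunit gene Psma2 had log2 fold changes of -1.07, -1.06, -1.01 and -1.08, each with adjusted p of 2.22e-08 or below and all 8 late ICMs below the early median. Psma2 went from 652 to 858 (median 786) CPM to 300.0 to 468 (median 340.4) CPM. The ubiquitin receptor gene Psmd4, in contrast, rose from 64.2 to 86.5 (median 75.8) CPM in morulae to 98.1 to 197 (median 180.4) CPM in early ICMs (log2 fold change 1.06 ± 0.16, adjusted p = 1.51e-08) and stood at 88 to 167 (median 129) CPM in late ICMs (-0.35 ± 0.16, adjusted p = 0.0709). Psma4 rose and then fell, with 0.96 ± 0.10 and -0.96 ± 0.11 in the 2 steps (adjusted p = 3.41e-13 and 2.61e-12).

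Most 19S genes of Sox2 Ctrl embryos fell at the first step instead. From morula to early ICM 12 of 49 members rose and 19 fell, beside 26.6% and 25.2% of all genes. At least 2-fold changes were found in 5 that rose and 7 that fell, where 31.9% of all genes passed that rule. Of the 19S particle 1 rose and 11 fell, with a median of -0.53, and of the core 4 rose and 4 fell, with a median of 0.03. From early to late ICM none rose and 5 fell, beside 3.36% and 3.85%, and none passed the 2-fold rule, which 2.9% of genes did. Under scaling by totals 1 rose and 3 fell in that step. Naive pluripotency markers summed to 2640.3 to 3461 CPM in these morulae, 3180 to 6499 CPM in early and 5598 to 8606 CPM in late ICMs, and their part was not tested here either. The one 19S gene that fell from early to late ICM was Psmd11, from 147 to 321 (median 227) CPM to 88.6 to 163 (median 137) CPM (log2 fold change -0.83 ± 0.14, adjusted p = 5.77e-05, 8 of 8 below). The other 4 were Psmg3, Psmb6, Psma5 and Psma4, at -0.69, -0.40, -0.36 and -0.32.

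Psmc2, an ATPase gene, had 461 to 605 (median 541) CPM in Sox2 Ctrl morulae and 179 to 349 (median 218) CPM in early ICMs (log2 fold change -1.17 ± 0.12, adjusted p = 4.13e-15). Psmd12 had 365 to 523 (median 387) CPM and 150.0 to 272 (median 204) CPM (log2 fold change -1.13 ± 0.11, adjusted p = 6.75e-15). Psmd14 had 291 to 369 (median 345) CPM and 131 to 225 (median 178) CPM (log2 fold change -1.01 ± 0.11, adjusted p = 8.66e-14). In all 3 the stages did not overlap and all 8 early ICMs lay below the morula median. Psmb7, the beta2 gene, fell from 571 to 661 (median 601) CPM to 216 to 431 (median 311) CPM (log2 fold change -1.03 ± 0.11, adjusted p = 3.55e-14), and Psmd7 from 427 to 539 (median 486) CPM to 155 to 381 (median 230.0) CPM (log2 fold change -1.02 ± 0.13, adjusted p = 6.07e-11), also without overlap. The 3′ end of Psmb7 lies over Nek6 on the other strand, and Nek6 had a group mean of up to 75.4 CPM, so the reads of these genes may not be separate. The other proteolytic genes of the core did not fall in this step. Psmb6 rose from 315 to 595 (median 471) CPM to 531 to 779.9 (median 691) CPM (log2 fold change 0.49 ± 0.11, adjusted p = 0.000104), and Psmb5 had a log2 fold change of 0.03 (adjusted p = 0.828). Psmd4 rose as it did in the Oct4 line, from 58.5 to 76.6 (median 66.8) CPM to 106 to 215 (median 171) CPM (log2 fold change 1.19 ± 0.16, adjusted p = 2.78e-10). Psmc3ip fell from 45.4 to 91.8 (median 55.8) CPM to 9.45 to 41.9 (median 23) CPM (log2 fold change -1.46 ± 0.22, adjusted p = 1.75e-08), with no overlap.

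**Figure D5:**
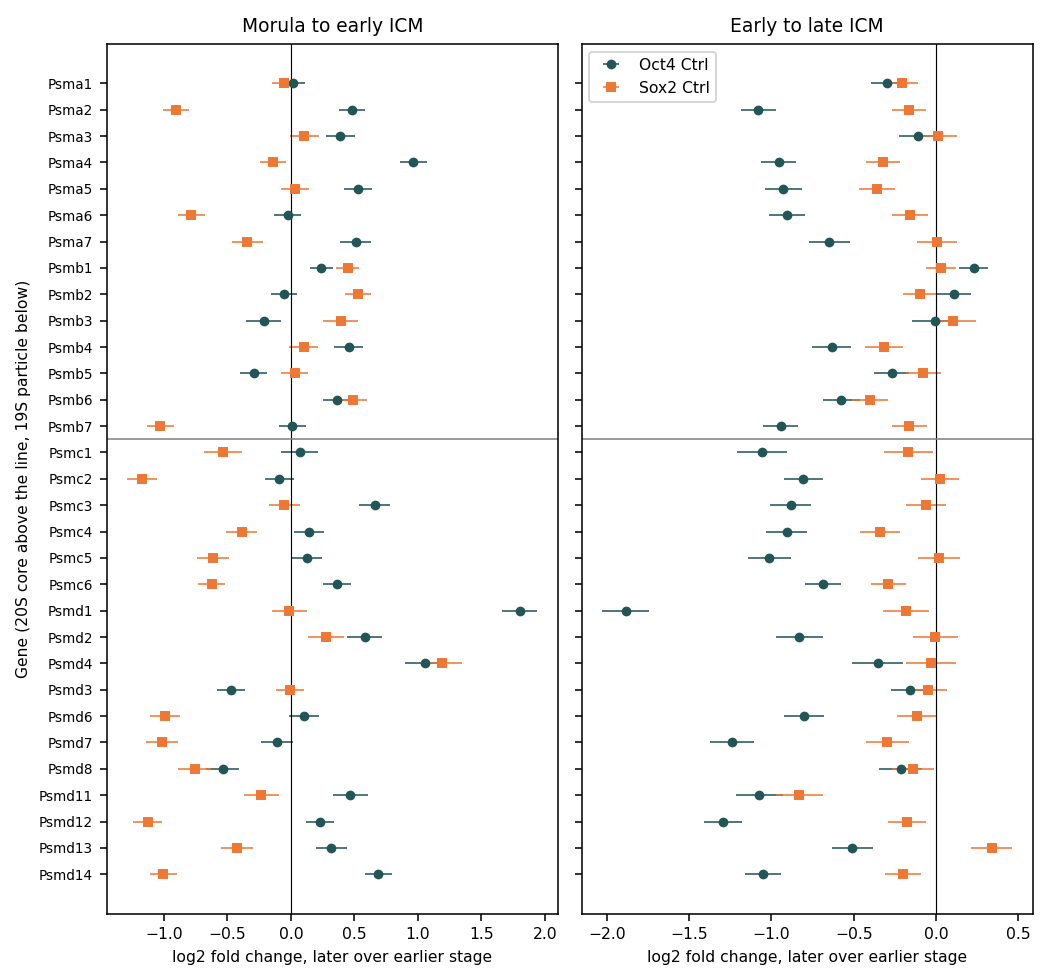
Log2 fold change of the 14 core genes (above the line) and 17 genes of the 19S particle (below it) from morula to early ICM and from early to late ICM in Ctrl embryos of the Oct4 line (dark circles) and the Sox2 line (orange squares), with bars of 1 standard error. In the left panel most Sox2 points of the 19S particle lie below 0 and below the Oct4 points, and in the right panel most Oct4 points lie below the Sox2 points, with Psmd1 at -1.89.

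The difference between lines in each step was tested in the same fit, a comparison chosen after the data were seen. From morula to early ICM the step of the Sox2 line was higher than that of the Oct4 line for 8 of 49 members and lower for 21, beside 13.4% and 12.7% of all genes, with a median difference of -0.36, against 0.07 over all genes. Of the 19S particle 1 was higher and 13 were lower. The lowest were Psmd1 (-1.81 (adjusted p = 9.16e-13)), Psmd14 (-1.69 (adjusted p = 1.69e-16)), Psma2 (-1.38 (adjusted p = 2.48e-13)) and Psmd12 (-1.36 (adjusted p = 1.55e-11)), all as log2 differences. From early to late ICM 18 were higher and 3 lower, beside 6.25% and 6.79%, with 12 higher and none lower of the 17 genes of the 19S particle. Psmd1 (1.70 (adjusted p = 2.14e-10)), Psmd12 (1.12 (adjusted p = 1.55e-07)) and Psmc5 (1.03 (adjusted p = 1.15e-05)) were highest, and Psmg4 (-1.30 (adjusted p = 0.00162)), Psmf1 (-0.94 (adjusted p = 0.00499)) and Psme4 (-0.72 (adjusted p = 0.019)) were lower.

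Ctrl embryos of the lines were also set against each other at each stage, likewise after the data were seen. Early ICMs differed most: 10 members were higher in the Sox2 line and 21 lower, beside 13.8% and 12.1% of all genes, and 14 of the 17 genes of the 19S particle were lower, with a median of -0.51. Naive pluripotency markers had medians of 5160 CPM in Oct4 and 3810 CPM in Sox2 Ctrl early ICMs, with overlap, and trophectoderm markers ran from 626 to 1802 and from 381 to 816 CPM, and their part was not tested. In morulae 15 were higher and 6 lower, beside 10.8% and 10.2%. In late ICMs 3 were higher and 1, Psme4 (log2 fold change -0.85 ± 0.15, adjusted p = 9.97e-05), was lower, beside 2.78% and 2.96%. The lines thus lay closest at the end of the time course, in counts of members as in counts of all genes. Ribosomal protein genes are another large set of housekeeping transcripts. Of 81 tested, 43 rose and 16 fell from morula to early ICM in Sox2 Ctrl embryos, beside 26.6% and 25.2% of all genes, and 11 rose and 42 fell in Oct4 Ctrl embryos, beside 23.8% and 24.3%. From early to late ICM 6 rose and 5 fell in Sox2 Ctrl embryos, beside 3.36% and 3.85%, and 41 rose and 11 fell in Oct4 Ctrl embryos, beside 17.2% and 15.2%. Line, allele and the collection of the embryos cannot be told apart in these comparisons.

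The same steps in KO embryos had similar counts. In Oct4-KO embryos 19 members rose and 5 fell from morula to early ICM, beside 21.7% and 23.4% of all genes, and 3 rose and 26 fell from early to late ICM, beside 17.4% and 15%. In Sox2-KO embryos 12 rose and 22 fell in the first step, beside 26% in either direction, and none rose and 4 fell in the second, beside 1.93% and 2.57%. The 19S particle had 14 falls of 17 from early to late ICM in Oct4-KO embryos, and 12 falls from morula to early ICM in Sox2-KO embryos.

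The immunoproteasome genes moved in opposite directions. Psmb10, the inducible beta2 gene, was a transcript of the morula. Oct4 Ctrl morulae had 55.6 to 89.3 CPM, with a median of 68.7, and early and late ICMs 4.6 to 20.4 (median 7.38) and 1.9 to 12.3 (median 6.92) CPM. The fall from morula to early ICM was the largest of any member (log2 fold change -2.95 ± 0.26, adjusted p = 1.09e-17), with no overlap. Sox2 Ctrl morulae had 28.5 to 66.9 (median 39.7) CPM and early ICMs 3.69 to 22.8 (median 16.9) CPM, again without overlap (log2 fold change -1.43 ± 0.24, adjusted p = 2.95e-07), and the fall was smaller than in the Oct4 line by 1.52 (adjusted p = 0.000479) on the log2 scale. Psmb9, the inducible beta1 gene, had 32 UMIs over 8 Oct4 Ctrl morulae and 117 over 8 early ICMs, or 0 to 7.84 (median 4.49) and 6.9 to 28.3 (median 17.6) CPM. It rose (log2 fold change 1.95 ± 0.55, adjusted p = 0.00192, 8 of 8 above). In Sox2 Ctrl embryos it went from 7 to 100 UMIs, or 0 to 2.05 (median 0.959) to 1.23 to 22.9 (median 15.9) CPM (log2 fold change 3.79 ± 0.70, adjusted p = 2.84e-06, 8 of 8 above). Neither gene passed the test in any KO comparison of the main fit, which holds no block. In Oct4-KO late ICMs Psmb9 ran from 4.35 to 68.7 CPM, with a median of 20.4, and the log2 fold change was 0.85 (adjusted p = 0.162). In late ICMs of the Oct4 line its level differed by the first digit of the embryo number, whose meaning the labels do not give. Ctrl late ICMs had 19.3 to 41 CPM where it was 1 and 0 to 1.82 CPM where it was 2, and KO late ICMs 20.3 to 68.7 and 4.35 to 20.6 CPM. Where the digit was 2 all KO embryos lay above all Ctrl embryos, and where it was 1 they overlapped. In Sox2 late ICMs the Psmb9 ranges of the 2 digits overlapped in both genotypes. Psmb10 lies under the antisense gene Gm16156, and Psmb9 touches Tap1 on the other strand.

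Psme1 and Psme2 encode the alpha and beta subunits of PA28, the activator that interferon induces. Psme2 had 2.12 to 21.7 (median 6.2) CPM in Oct4 Ctrl morulae and 27.6 to 54.7 (median 39) CPM in early ICMs (log2 fold change 1.98 ± 0.28, adjusted p = 2.92e-09), and 1.58 to 11.6 (median 7.74) and 56.4 to 81.7 (median 66.2) CPM in Sox2 Ctrl embryos (log2 fold change 3.14 ± 0.27, adjusted p = 9.24e-18). All 8 early ICMs of either line lay above all 8 morulae. Psme1, its partner, had 32.5 to 103 (median 50.2) CPM in Oct4 Ctrl morulae, 23.7 to 50.1 (median 38.6) CPM in early ICMs and 26.7 to 79.9 (median 54.2) CPM in late ICMs. It fell and then rose (log2 fold change -0.67 ± 0.23, adjusted p = 0.0135, and 0.60 ± 0.24, adjusted p = 0.0477), and the second call was lost without the late ICM numbered 2-9. The 3′ end of Psme1 overlaps that of Emc9 on the other strand by 14 bases, so a few reads may be shared. In Sox2 Ctrl embryos it rose at the first step, from 13.3 to 53.3 (median 37.8) CPM to 47.9 to 88.6 (median 65.3) CPM (log2 fold change 0.85 ± 0.23, adjusted p = 0.00123, 8 of 8 above). Psme2b, a near copy of Psme2 within the predicted gene Gm12185 on the same strand, had 2 UMIs in Sox2 Ctrl morulae and 14 in early ICMs (log2 fold change 2.42 ± 0.77, adjusted p = 0.00575), and reads could have been split between the copies. No PA28 gene passed the test in a KO comparison.

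Psme3 encodes PA28 gamma, the nuclear form. It was steadier, with 84 to 136 (median 101), 69.3 to 127 (median 95.5) and 84.9 to 162 (median 135) CPM in Oct4 Ctrl embryos, and it rose in the second step (log2 fold change 0.52 ± 0.14, adjusted p = 0.00227, 7 of 8 above). In Sox2 Ctrl embryos it had 110.1 to 166 (median 132), 105 to 186 (median 154) and 103 to 212 (median 161) CPM, with no call in either step. In KO ICMs its log2 fold changes ran from -0.35 to -0.21, none past the threshold.

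Psme4 and Psmg4, the genes that fell most in Oct4-KO late ICMs, were also the members with the largest rises from early to late ICM in Oct4 Ctrl embryos. Those steps use the same late Ctrl embryos as the KO comparison. Psme4 rose (log2 fold change 1.04 ± 0.16, adjusted p = 5.72e-08) and Psmg4 rose (log2 fold change 1.56 ± 0.23, adjusted p = 2.44e-08), with no overlap between the stages in either gene. The Oct4 MWT late ICMs, which are not in that comparison, had 71.1 to 226 (median 149.7) CPM of Psme4 and 44.5 to 159 (median 98.6) CPM of Psmg4. The 5 Oct4 MWT early ICMs had 53.2, 56.8, 61, 67.7 and 71.3 CPM of Psme4 and 28.6, 30.9, 44.6, 55.7 and 65.6 CPM of Psmg4. In Sox2 Ctrl embryos Psme4 stayed between 61.8 to 105 CPM in morulae, 50.9 to 87.4 CPM in early ICMs and 46.1 to 122 CPM in late ICMs, and its second step did not pass the test (0.32 ± 0.16, adjusted p = 0.221). Psmg4 rose in the first step of that line instead, from 21.3 to 74 (median 25.3) CPM to 64.3 to 124 (median 87) CPM (log2 fold change 1.23 ± 0.23, adjusted p = 2.55e-06, 8 of 8 above). Sox2 Ctrl late ICMs had 68.2 to 153 CPM of Psmg4.

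The other core chaperones and PI31 moved less. Psmg1 rose from morula to early ICM in both lines without overlap, from 37.1 to 67.1 (median 54.1) to 72.5 to 111 (median 89.3) CPM in Oct4 Ctrl embryos (log2 fold change 0.71 ± 0.15, adjusted p = 2.16e-05) and from 52 to 86.3 (median 67.7) to 98.6 to 151 (median 119) CPM in Sox2 Ctrl embryos (log2 fold change 0.80 ± 0.14, adjusted p = 8.79e-07). Psmg2 had 63.6 to 92.6 (median 81.3), 57.6 to 102 (median 85.9) and 62.7 to 103 (median 76.7) CPM in Oct4 Ctrl embryos and passed the test in no KO comparison and no Ctrl step. Psmg3 fell from early to late ICM in both lines (-0.63 (adjusted p = 0.00513) and -0.69 (adjusted p = 0.00914)). Psmf1 rose from early to late ICM in Oct4 Ctrl embryos (log2 fold change 0.55 ± 0.18, adjusted p = 0.0115) and from morula to early ICM in Sox2 Ctrl embryos (log2 fold change 0.59 ± 0.17, adjusted p = 0.00278). The testis gene Psma8 went from 1 to 8 UMIs between Oct4 Ctrl morulae and early ICMs (log2 fold change 2.21 ± 0.94, adjusted p = 0.0437), and the thymus gene Psmb11 from 15 to 11 (adjusted p = 0.679), counts too low for a fold change to be read.

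MWT embryos were compared with Ctrl embryos to see what an intact maternal gene changed, in a fit of all 16 groups over 13923 genes. The Oct4 MWT ICMs may also differ from Ctrl ICMs in day or inhibitor, which their labels leave unclear. In the Oct4 line no member was called in morulae or early ICMs by edgeR, with 3 and 1 at an unadjusted p under 0.05, beside 0.079% and 0.639% of all genes in either direction. In Oct4 late ICMs 1 member, Psma4, was higher in MWT embryos (215 to 381 (median 276) CPM in Ctrl, 278 to 519.9 (median 359) CPM in MWT, log2 fold change 0.40 ± 0.11, adjusted p = 0.0484, 8 of 8 above), beside 1.58%. The call was lost without the filter on detection, and under scaling by totals 4 members were called, all higher.

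In the Sox2 line, where early ICMs were the one stage with MWT embryos, 15 members were higher in MWT embryos and 1 was lower, beside 3.3% and 3.02% of all genes. The median was 0.26, against -0.02 over all genes. Of the core 6 were higher, and of the 19S particle 8. Psmb5 had 267 to 374 (median 326) CPM in Ctrl and 386 to 584 (median 433) CPM in MWT early ICMs (log2 fold change 0.47 ± 0.12, adjusted p = 0.00595), Psmb6 531 to 779.9 (median 691) and 830.3 to 1123 (median 882) CPM (log2 fold change 0.44 ± 0.11, adjusted p = 0.00744), and Psmd14 131 to 225 (median 178) and 233 to 342 (median 252) CPM (log2 fold change 0.62 ± 0.11, adjusted p = 9.59e-05). In these 3 genes all 7 MWT embryos exceeded all 8 Ctrl embryos. The largest rises were in Psmd13 of the lid (0.76 (adjusted p = 2.06e-05)) and the ATPase gene Psmc2 (0.72 (adjusted p = 1.33e-05)), and the gene that fell was Psmg4, from 64.3 to 124 (median 87) to 35.5 to 70.0 (median 42.9) CPM (log2 fold change -0.87 ± 0.24, adjusted p = 0.0151). The 19S to 20S ratio of these MWT embryos was 0.523 to 0.629 (median 0.559). Primitive endoderm markers summed to 1059 to 1536 CPM in the MWT and 234 to 892 CPM in the Ctrl early ICMs, with Foxa2 at 0 in both, so these groups differed in more than the proteasome, and the part of that difference was not tested.

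The genes around the proteasome were read from 4 lists of 39 genes in the table, 38 of them tested. They cover regulators of proteasome genes, shuttle and extraction factors, ubiquitin supply, and other subunits and partners. In Oct4-KO late ICMs 10 of the 38 rose and 4 fell, beside 16% and 15.7% of all genes, and in Oct4-KO early ICMs 4 and 3, beside 10.1% and 10.9%. In Sox2-KO late ICMs 5 rose and 3 fell, beside 6.96% and 6.81%, and in Sox2-KO early ICMs 2 and 1, beside 3.22% and 3.82%. Nfe2l1, the activator of proteasome genes named above, rose in Oct4-KO morulae (log2 fold change 0.50 ± 0.14, adjusted p = 0.0394, mean 53 CPM in Ctrl and 72.1 CPM in KO embryos) and fell in late ICMs without Sox2 (log2 fold change -0.56 ± 0.13, adjusted p = 0.00144, mean 127 and 79.5 CPM). Adrm1 and Sem1, a ubiquitin receptor and a small lid subunit of the 19S particle, passed the test in no KO comparison. Pomp, the maturation factor of the core, rose in Oct4-KO late ICMs (log2 fold change 0.40 ± 0.13, adjusted p = 0.0137, mean 97.9 and 121 CPM).

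Among the shuttle factors, which carry ubiquitinated proteins to the proteasome, Ubqln4 fell in Oct4-KO early and late ICMs (-1.51 (adjusted p = 8.85e-06) and -1.78 (adjusted p = 1.19e-08)) and in late ICMs without Sox2 (-1.84 (adjusted p = 3.69e-09)), and its relative Ubqln2 rose in Oct4-KO late ICMs (1.63 (adjusted p = 2.02e-10)). Of the regulators Nfe2l2 rose in Sox2-KO early ICMs (1.13 (adjusted p = 0.000752)) and Maff fell in those without Sox2 at the late stage (-1.15 (adjusted p = 0.0489)). Of 9 antigen presentation genes tested of 11, the destination of peptides that proteasomes make, 3 rose and 2 fell in Oct4-KO late ICMs, beside 16% and 15.7% of all genes. The class I gene H2-K1 fell there (-1.97 (adjusted p = 7.68e-05)), and the peptide transporter gene Tap1 rose (2.76 (adjusted p = 0.00176)). Tap1 was scarce, with 323 UMIs in all embryos together and its highest group mean, 11.3 CPM, in Oct4-KO late ICMs. It overlaps Psmb9 on the other strand.

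In Oct4 Ctrl embryos 15 of the 38 rose and 6 fell from morula to early ICM, beside 23.8% and 24.3% of all genes, and 4 rose and 14 fell from early to late ICM, beside 17.2% and 15.2%. Vcp, the ATPase that extracts ubiquitinated proteins, fell from a mean of 531 to 140.3 CPM (log2 fold change -1.87 ± 0.13, adjusted p = 1.24e-22), Pomp from 234 to 97.9 CPM (log2 fold change -1.18 ± 0.13, adjusted p = 1.29e-12) and Ecpas, a scaffold that binds the 26S complex, by 1.37. Uba1, the ubiquitin-activating enzyme, rose and then fell (1.02 ± 0.19 and -1.46 ± 0.20, adjusted p = 5.42e-06 and 2.39e-09). In Sox2 Ctrl embryos Vcp and Pomp fell at the first step (-1.18 (adjusted p = 2.38e-14) and -0.99 (adjusted p = 5.92e-11)), where 11 of the 38 rose and 13 fell, beside 26.6% and 25.2% of all genes. Adrm1 fell from morula to early ICM in the Oct4 line (-1.16 (adjusted p = 7.8e-10)) and rose in the Sox2 line (0.77 (adjusted p = 1.41e-05)), whereas Sem1 fell in both (-0.93 (adjusted p = 4.02e-11) and -0.40 (adjusted p = 0.00202)). The ubiquitin gene Ubb rose in that step in both lines (1.40 (adjusted p = 5.76e-13) and 1.17 (adjusted p = 2.04e-10)).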

How the data were processed

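Single embryos or ICMs were sequenced from their 3′ ends with UMIs. The authors extracted UMIs with UMI-tools, trimmed reads with Cutadapt, aligned them to mm10 with TopHat2 (GENCODE vM23), assigned them with featureCounts and estimated transcripts with TRUmiCount. Bowtie2 served for the ERCC spike-ins, which were not used here. Strand use in counting is not given in the sources used here. The deposited table holds counts of UMIs per gene without normalization. Rlog values, a log2 scale that the authors made with DESeq2, were deposited for 15747 genes and used only as an alternative with limma 3.58.1.

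The group means of the counts were fitted in edgeR 4.0.16 (R 4.3.3, TMM, quasi-likelihood F test, no covariates). A gene was kept if a share of 0.5 or more of the embryos at any stage had a UMI. The 96 Ctrl and KO embryos shared 1 fit, and the MWT comparisons used all 16 groups. The standard error was taken as the absolute log2 fold change divided by the square root of F. CPM use library totals, whereas fold changes use TMM, so a fold change can differ a little from the ratio of levels. Every adjusted p comes from edgeR unless another tool is named. Alternatives were DESeq2 1.42.0, limma, scaling by totals, no filter, the 2 groups alone and blocks. Simulated data checked the fit: of 200 changed genes drawn for the Oct4 late ICM comparison 77.5% were recovered among 14053. Changes were planted only in genes above a minimum count, and the counts were drawn from the means and spreads of the fit itself. Even the smallest planted change exceeded most changes of the members there, so this share does not say how often changes that small are found. Over 416 pairs of embryos within groups the lowest chi-square per gene between counts was 2.41 (median 4.76), so no library appeared to be repeated.

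The members and lists were chosen with earlier results of these data known. Named members had a 2-fold change in a KO comparison or Ctrl step, were among the 3 lowest or 3 highest changed there, or belonged to a fixed list (Psmb5 to Psmb10, Psma8, Psmb11, Psme1 to Psme4, Psmf1, Psmg1 to Psmg4, Psmc3ip); Nfe2l1, Adrm1, Sem1, Pomp and pathway genes with a 2-fold change were added. Other members named in the MWT and line comparisons, and Psmb1, Psmd3 and Psmd8 in the Oct4 Ctrl step from early to late ICM, were chosen after their values were seen. Comparisons between the lines, the fit with MWT embryos and the omission of embryo 2-9 were added after seeing the data. Overlapping genes were read from GENCODE vM21, in which all 50 members had the same position. There, 4 pseudogenes carry member-like names.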

Additional observations from a re-analysis of the deposited data

Results flagged for a closer look

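Of 288 sets of values of 1 measure in 1 group of up to 8 embryos, 19 had an embryo that stood apart by Dixon's test at the 95% level, where chance gives about 5%. The Oct4 Ctrl late ICM numbered 2-9 accounted for 5 of them. It had a 19S sum of 3131 CPM, 159 CPM of Psmd1, 468 CPM of Psma2, 235 CPM of Psmd7 and 336 CPM of Psmb7, each above the other 7 embryos, and the 5 members whose calls were lost without it are named in the text. The Oct4-KO late ICM numbered 1-8 was high in Psmb10 (23.2 CPM) and Psme2 (71.0 CPM).

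Single embryos stood apart in the other sets. The 19S to 20S ratio was 0.618 in the Oct4 Ctrl early ICM 9, and the Oct4 MWT late ICM 15 had 894465 UMIs. Psme4 had 72.3 CPM in the Oct4-KO early ICM 1, which raises that KO group. Psmb5 had 584 CPM in the Sox2 MWT early ICM 15, and Psmb10 66.9 CPM in the Sox2 Ctrl morula 16. Psme2 had 84.5 CPM in the Oct4-KO early ICM 11, 25.9 CPM in the Oct4-KO morula 7 and 119 CPM in the Sox2-KO late ICM 2-10. Psmc3ip had 23.8 CPM in the Sox2-KO early ICM 21. Psmg3 was low at 64.7 CPM in the Oct4 Ctrl morula 1. Psmd7 had 255 CPM in the Sox2-KO late ICM 2-8, and Psmb7 608 CPM in the Oct4 Ctrl early ICM 2.

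Effects that differed between lines or stages passed a test of the difference. The KO effect on Psmg3 in early ICMs was 0.96 higher (log2) in the Oct4 than in the Sox2 line, that on Psmb5 in late ICMs 0.61 higher, and that on Psme4 in the Oct4 line differed by -0.80 between late and early ICMs. From morula to early ICM the step of Sox2 Ctrl embryos differed from that of Oct4 Ctrl embryos in 29 members. Sox2 minus Oct4 (log2) was -1.81 for Psmd1, -1.69 for Psmd14, -1.36 for Psmd12, -1.10 for Psmd6, -0.91 for Psmd7, -0.74 for Psmd13, -0.70 for Psmd11 and 0.46 for Psmd3 among the base and lid genes. For the ATPase genes it was -1.08 for Psmc2, -0.99 for Psmc6, -0.74 for Psmc5, -0.71 for Psmc3, -0.60 for Psmc1 and -0.53 for Psmc4. In the core it was -1.38 for Psma2, -1.10 for Psma4, -1.04 for Psmb7, -0.85 for Psma7, -0.76 for Psma6, -0.50 for Psma5, 0.59 for Psmb2 and 0.60 for Psmb3. The others were Psmc3ip at -1.06, Psme4 at -0.69, Psmf1 at 0.72, Psme2 at 1.16, Psmg4 at 1.47, Psme1 at 1.51 and Psmb10 at 1.52. From early to late ICM 21 members differed. The same difference was 1.70 for Psmd1, 1.12 for Psmd12, 0.94 for Psmd7, 0.85 for Psmd14, 0.85 for Psmd13, 0.83 for Psmd2 and 0.69 for Psmd6, and for the ATPase genes it was 1.03 for Psmc5, 0.89 for Psmc1, 0.83 for Psmc2, 0.82 for Psmc3 and 0.57 for Psmc4. It was 0.92 for Psma2, 0.78 for Psmb7, 0.75 for Psma6, 0.66 for Psma7, 0.63 for Psma4 and 0.57 for Psma5 in the core, against -0.72 for Psme4, -0.94 for Psmf1 and -1.30 for Psmg4. Both steps use the early ICMs, so their differences are not independent.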

How the results depend on the processing

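Counts of called members moved by over 1.5 times in 7 comparisons. With scaling by totals there were 0 in Oct4-KO morulae (1 in the main fit), 4 in Oct4-KO early ICMs (8), 2 in Sox2-KO early ICMs (1), 5 in Sox2-KO late ICMs (1) and 4 in Oct4 MWT late ICMs (1). With no filter on detection the counts were 0 in Oct4-KO morulae, 4 in Oct4-KO early ICMs, 0 in Sox2-KO early ICMs, 3 in the Sox2 Ctrl step from early to late ICM (5) and 0 in Oct4 MWT late ICMs. The embryos of the 2 groups alone gave 2 in Oct4-KO morulae, 7 in Oct4-KO late ICMs (19), 0 in Sox2-KO early ICMs and 2 in that Sox2 Ctrl step. DESeq2 called 2 in both Sox2-KO ICM stages, and limma on the rlog values 0 in early and 2 in late ICMs. The cause was not tested. No fold change of a called member changed direction under any of the alternatives run, and leaving out each Oct4 MWT early ICM in turn kept that count at 0. The alternatives covered only the KO, Ctrl step and MWT comparisons. Interaction contrasts, differences between the lines and the steps of KO embryos come from the main fit alone.

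The deviations of same-numbered embryos had r of -0.08 to 0.22. They were not compared with those of differently numbered embryos, so whether the number pairs embryos was not settled. With the replicate number as a block, over the embryos that share one, the counts were 0 in Oct4-KO morulae, 1 in their early ICMs and 0 in early ICMs without Sox2, and the same embryos with no block gave 0, 1 and 0. Sox2-KO late ICMs had 1 with the block and 0 without. No block by number was possible for Oct4 late ICMs and Sox2 morulae, for which fewer than 2 numbers are shared. With the first digit of the late ICM number as a block Sox2-KO late ICMs had 2.

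Psme4 kept its call in Oct4-KO late ICMs, at -1.27 to -1.55, under every alternative run. In Sox2-KO late ICMs it ran from -0.74 to -0.97 and lost the call in the smaller set of embryos without the block. At 1 CPM an embryo holds about 1 UMI, so Psma8, Psmb11 and Psme2b are beyond this depth.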
